A study of Mus musculus with 9 samples.

Results

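The genes described here are the macrophage and leukocyte identity genes, a list of 42 symbols that mark blood-derived cells in general, macrophages, and macrophages resident in tissues. Members were the genes on the list measured by a probe set that the platform assigns to a single symbol, each gene by its probe set with the highest mean. All 42 were measured, by 76 probe sets, among 18193 genes measured in all. Macrophages are phagocytes that settle in the gut wall before birth and live among its fibroblasts and muscle. Their identity rests on the transcription factor Spi1 (PU.1) and on receptors for debris, complement and antibody. When activated they add cytokines, chemokines and antimicrobial proteins, and whether identity genes move apart from these is the question the list addresses.

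Small intestinal mesenchyme of C57Bl/6J embryos at E18.5 was freed of epithelium and cultured on collagen for 48 h. Treatment for 24 h was with Shh (Sonic hedgehog, 3 arrays), Ihh (Indian hedgehog, 3 arrays) or Vehicle (3 arrays). Both ligands are secreted by the gut epithelium and received by the mesenchyme. The 6 wells of each treatment were pooled at random into 3 samples, so p-values measure the spread between pools. The labels used here name neither the dose of ligand, nor what the vehicle contained, nor the number of embryos behind the wells.

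Values are log2 expression per probe set as deposited, and a log2 difference of 1 is a 2-fold change. Array medians lay between 5.87 and 5.92, and low values are compressed towards background. The number of arrays limits the precision. The culture carried the defining transcripts of mesenchyme, whose 11 markers averaged 10.98 to 11.25 on the treated arrays and 11.12 to 11.29 on the Vehicle arrays. The hedgehog receptor and target Ptch1 was 2.78-fold higher with the ligands (adjusted p = 0.000622). Of other leukocytes, 5 of 5 B cell markers and 6 of 6 mast cell markers lay below the array medians on every array, as did 5 of 8 neutrophil, 3 of 6 T cell and 2 of 5 dendritic cell markers. Although the epithelium was removed, 0 of the 7 epithelial markers lay below the array medians on every array. They varied widely within every group, from -1.08 to 1.20 around the Vehicle mean on the treated arrays and from -1.16 to 1.09 on the Vehicle arrays. The 8 endothelial markers averaged -0.46 to 0.01 on the treated arrays and -0.17 to 0.09 on the Vehicle arrays, and the 6 enteric neuron and glia markers -0.31 to 0.12 and -0.13 to 0.12. The part of these lists in the results below was not tested. In this bulk RNA, fewer cells of a type and less RNA per cell cannot be told apart.

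A minority of the identity genes passed the test, in both directions. With both ligands against Vehicle (6 arrays against 3), limma placed 9 of the 42 members (21.4%) past an adjusted p of 0.05, of which 3 rose and 6 fell. Over all genes tested the share past it was 1.51%, with 0.434% rising and 1.07% falling. The shares are not of like genes, as the members were bright, at a median percentile of 84.0 of all genes by mean. They were also chosen with earlier results of these data known. The genes that fell were Adgre1, Itgam, Cd52, Slc11a1, Itgb2 and Lyz2, and those that rose were Trem2, Gas6 and Laptm5. The 33 members short of the threshold differed by -0.74 to 0.59 log2, and 18 of them by less than 0.2 in either direction. The median difference of the 42 members was -0.10 log2, against 0.00 over all genes. Treated and Vehicle arrays did not overlap in 4 members that were higher and 7 that were lower, where 2.67% and 3.8% of all genes separated in this way, 6.47% in all. At an unadjusted p under 0.05 there were 9 members higher and 16 lower, where 5.25% of all genes were higher and 8.41% lower at that mark, 13.7% in all.

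**Figure D1:**
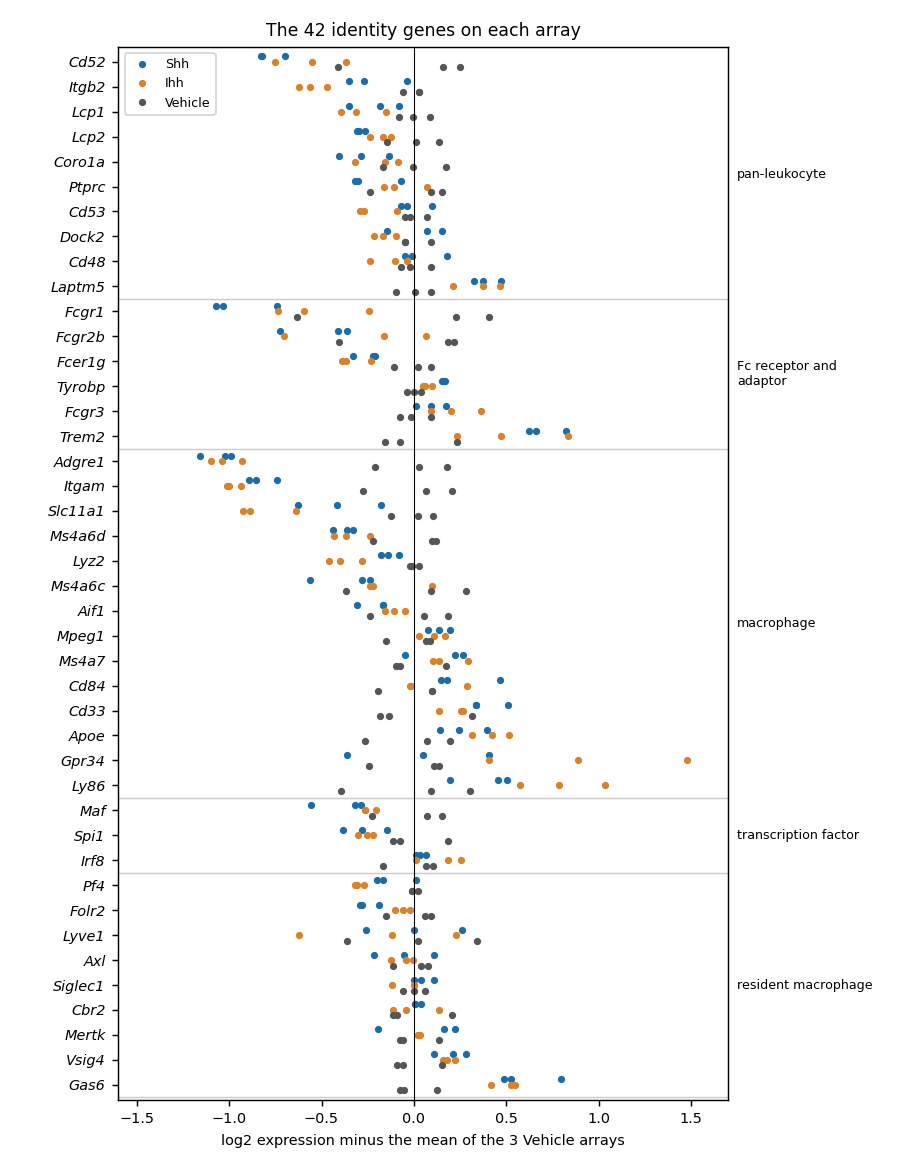
Log2 expression of each of the 42 identity genes on every array minus the mean of the 3 Vehicle arrays, with Shh, Ihh and Vehicle arrays as coloured points and genes grouped by role. Adgre1 and Itgam lie far left of Vehicle on all treated arrays, while the resident macrophage genes other than Gas6 and Lyve1 lie close to 0.

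Adgre1, the F4/80 surface receptor by which mouse macrophages are recognised, fell most. It was at 8.69, 8.83 and 8.86 log2 with Shh and 8.81, 8.92 and 8.75 with Ihh, against 9.88, 10.03 and 9.64 with Vehicle. Every treated array lay below every Vehicle array. The difference was -1.04 ± 0.08 log2 (SE, adjusted p = 0.000269), 2.06-fold lower. By ligand it was -1.06 ± 0.10 for Shh (adjusted p = 0.000885) and -1.02 ± 0.10 for Ihh (adjusted p = 0.000949).

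Itgam encodes CD11b, the alpha chain of complement receptor 3. It was at 6.97, 6.86 and 6.82 log2 with Shh and 6.71, 6.78 and 6.70 with Ihh, against 7.78, 7.92 and 7.44 with Vehicle. The groups did not overlap. The difference was -0.91 ± 0.09 log2 (SE, adjusted p = 0.00107), 1.88-fold lower, with -0.83 for Shh (adjusted p = 0.00631) and -0.98 for Ihh (adjusted p = 0.00233). The calls of Adgre1 and Itgam held without any single array, at adjusted p of up to 0.00373 and 0.0114.

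Itgb2, the beta chain that pairs with CD11b and the other leukocyte integrins, also fell. Its values were 9.55, 9.32 and 9.24 log2 with Shh and 9.03, 8.97 and 9.12 with Ihh, against 9.53, 9.62 and 9.62 with Vehicle. Shh 1 lay within the Vehicle range and the other treated arrays below it. The difference was -0.38 ± 0.07 log2 (SE, adjusted p = 0.0336) for both ligands, -0.55 for Ihh (adjusted p = 0.0172) and -0.22 for Shh (adjusted p = 0.199).

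Slc11a1, a metal transporter of the phagosome, was at 9.47, 9.02 and 9.23 log2 with Shh and 8.76, 8.72 and 9.01 with Ihh, against 9.52, 9.67 and 9.75 with Vehicle. All treated arrays were lower than all Vehicle arrays, though Shh 1 only narrowly so. The difference was -0.61 ± 0.10 log2 (SE, adjusted p = 0.0225) for both ligands, -0.82 for Ihh (adjusted p = 0.0148) and -0.41 for Shh (adjusted p = 0.116).

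Lyz2 encodes the lysozyme of macrophages. It stood at 13.09, 13.03 and 12.99 log2 with Shh and 12.89, 12.71 and 12.77 with Ihh, against 13.20, 13.16 and 13.15 with Vehicle. The groups did not overlap, but the step was small at -0.26 ± 0.05 log2 (SE, adjusted p = 0.0494), 1.19-fold lower. For Ihh it was -0.38 (adjusted p = 0.026) and for Shh -0.13 (adjusted p = 0.274).

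Cd52, a small glycoprotein anchored to the leukocyte surface, was at 9.35, 9.47 and 9.34 log2 with Shh and 9.62, 9.80 and 9.42 with Ihh, against 10.33, 10.42 and 9.76 with Vehicle. Vehicle 3 lay between the other Vehicle arrays and the treated ones, and below Ihh 2. The difference was -0.67 ± 0.14 log2 (SE, adjusted p = 0.0454), with -0.78 for Shh (adjusted p = 0.0404) and -0.56 for Ihh (adjusted p = 0.23).

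Of the genes that rose, Gas6 encodes the secreted bridge by which apoptotic cells are bound to the receptors Axl and Mertk, and fibroblasts can make it as well as macrophages. It was at 8.86, 8.59 and 8.55 log2 with Shh and 8.59, 8.48 and 8.61 with Ihh, against 8.19, 7.99 and 8.01 with Vehicle. The groups did not overlap. The difference was 0.55 ± 0.08 log2 (SE, adjusted p = 0.00834), 1.46-fold higher, with 0.60 for Shh (adjusted p = 0.014) and 0.50 for Ihh (adjusted p = 0.0463). Its other probe set, at a mean of 5.65 log2, differed by 0.14 (adjusted p = 0.363 with every probe set in the fit). The mesenchymal markers averaged -0.22 to 0.05 around the Vehicle mean on the treated arrays and -0.08 to 0.10 on the Vehicle arrays, and their part in Gas6 was not tested. The receptors of Gas6 did not pass the threshold: Axl differed by -0.05 (95% interval -0.22 to 0.11) and Mertk by 0.04 (-0.16 to 0.24).

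Trem2, a lipid-sensing receptor of macrophages that signals through Tyrobp, was at 8.29, 8.09 and 8.13 log2 with Shh and 7.70, 7.94 and 8.30 with Ihh, against 7.31, 7.39 and 7.70 with Vehicle. Ihh 1 and Vehicle 3 met at 7.70 and the other treated arrays were higher than Vehicle. The difference was 0.61 ± 0.13 log2 (SE, adjusted p = 0.0494), with 0.71 for Shh (adjusted p = 0.0464) and 0.52 for Ihh (adjusted p = 0.234). Its other probe set, at a mean of 5.44 log2, differed by 0.15 (adjusted p = 0.273 with every probe set in the fit).

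Laptm5, a lysosomal membrane protein of blood cells, was at 10.60, 10.55 and 10.70 log2 with Shh and 10.44, 10.60 and 10.69 with Ihh, against 10.32, 10.23 and 10.13 with Vehicle. The groups did not overlap. The difference was 0.37 ± 0.07 log2 (SE, adjusted p = 0.0347), with 0.39 for Shh (adjusted p = 0.0447) and 0.34 for Ihh (adjusted p = 0.118). Its 4 other probe sets differed by 0.25, 0.15, 0.13 and -0.02 without passing the threshold, and the one used is of a class that can cross-hybridise.

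The other 7 calls each ended when some single array was left out. That of Gas6 ended without Vehicle 2, at an adjusted p of 0.0633, and that of Slc11a1 without Shh 3, Ihh 2, Vehicle 1 or Vehicle 2, at up to 0.105. The call of Itgb2 held only without Shh 1 or Ihh 3, that of Laptm5 only without Ihh 1, that of Lyz2 only without Ihh 1, that of Trem2 only without Ihh 1 or Vehicle 3, and that of Cd52 only without Vehicle 3. Outside these, adjusted p reached up to 0.152 for Itgb2, 0.143 for Laptm5, 0.19 for Lyz2, 0.219 for Trem2 and 0.2 for Cd52. Those of Trem2, Laptm5 and Lyz2 also ended when probe sets that may match other transcripts were left out, a setting in which Adgre1 was not tested. Those of Cd52, Lyz2 and Trem2 ended with every probe set in the fit, those of Lyz2 and Itgb2 with arrays centred on their medians, and that of Laptm5 with the mean of probe sets. That of Lyz2 also ended with a repeated quantile normalization and that of Cd52 with a trended and robust prior.

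**Figure D2:**
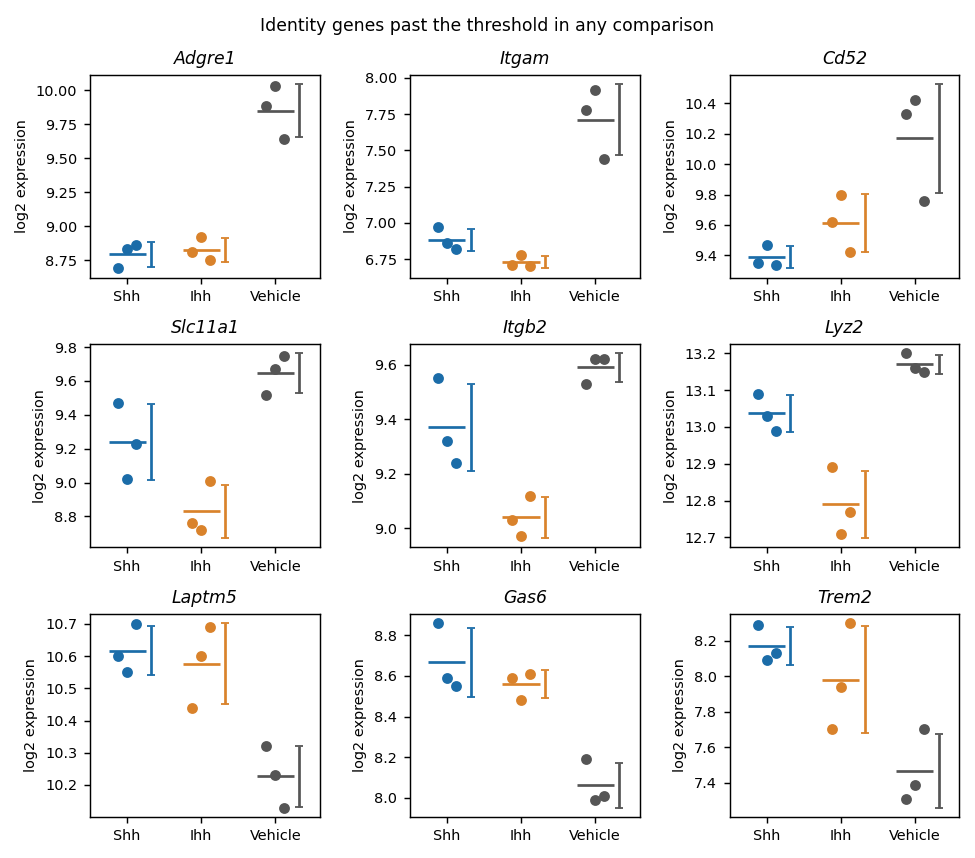
Log2 expression of the 9 identity genes past the threshold, with a point for each Shh, Ihh and Vehicle array, a line at the group mean and a bar of 1 SD (n = 3). Each panel has its own axis, which does not start at 0, and Adgre1 and Itgam show the widest gap between treated and Vehicle arrays.

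Promoters of these genes are shown because Spi1 binds GAGGAA, the PU-box, in myeloid genes. The search for GAGGAA was added after the result for the longer GAGGAAGT, given below, was seen. In RefSeq sequence of GRCm38.p6, from 250 bases before to 50 after the gene start, 32 members had 41 promoters. A GAGGAA on either strand was found for 19 of these 32 genes (59.4%), against 31.3% of all 27025 genes with a promoter, and in 51.2% of the members' promoters against 28.3% of all promoters. Inflammatory macrophage genes held it in 12 of 21 (57.1%). The longer GAGGAAGT, which contains the first, was found for 2 of 32 members (6.25%), against 3.69% of all genes, and the hedgehog effector motif GACCACCCA for 0 of 32, against 0.289%. The kappa-B motif was found for 0 of 32 members and 4 of 21 inflammatory genes (19.0%), against 0.466% of all genes. The ETS-IRF composite motif occurred for 2 of 32 members (3.16% of all genes), and the interferon response motif, which can overlap it, for 1 of 32 and for 3 of 21 inflammatory genes (14.3%), against 3.99% of all genes. A match is a description of letters and not a bound site. Capitals below mark GAGGAA, or its reverse complement, in promoters of 2 members that fell (Itgam, Slc11a1) and the 3 that rose (Laptm5, Trem2, Gas6).
Itgam, chr7:128062390-128062689, plus strand: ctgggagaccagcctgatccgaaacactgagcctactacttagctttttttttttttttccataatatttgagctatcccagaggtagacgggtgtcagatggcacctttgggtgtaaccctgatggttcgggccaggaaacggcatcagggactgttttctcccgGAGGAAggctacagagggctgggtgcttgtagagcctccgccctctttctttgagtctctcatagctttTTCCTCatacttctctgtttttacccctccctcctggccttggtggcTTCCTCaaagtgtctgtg
Slc11a1, chr1:74374953-74375252, plus strand: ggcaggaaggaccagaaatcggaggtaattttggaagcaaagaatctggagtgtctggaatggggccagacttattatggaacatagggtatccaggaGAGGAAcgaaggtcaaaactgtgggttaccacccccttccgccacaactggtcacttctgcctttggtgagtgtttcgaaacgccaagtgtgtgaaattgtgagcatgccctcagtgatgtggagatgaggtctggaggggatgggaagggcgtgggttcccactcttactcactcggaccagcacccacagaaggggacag
Laptm5, chr4:130913066-130913365, plus strand: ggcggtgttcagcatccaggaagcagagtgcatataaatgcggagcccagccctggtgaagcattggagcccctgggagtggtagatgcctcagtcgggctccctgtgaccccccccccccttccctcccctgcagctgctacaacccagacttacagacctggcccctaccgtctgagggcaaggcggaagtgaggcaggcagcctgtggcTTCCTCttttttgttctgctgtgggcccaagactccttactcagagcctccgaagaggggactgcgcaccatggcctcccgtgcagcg
Trem2, chr17:48346151-48346450, plus strand: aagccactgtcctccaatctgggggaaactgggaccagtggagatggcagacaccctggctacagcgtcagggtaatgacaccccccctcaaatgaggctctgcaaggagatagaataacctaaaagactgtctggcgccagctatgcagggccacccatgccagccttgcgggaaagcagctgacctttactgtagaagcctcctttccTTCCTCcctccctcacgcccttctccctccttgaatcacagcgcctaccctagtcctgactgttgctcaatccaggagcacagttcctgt
Gas6, chr8:13494486-13494785, minus strand: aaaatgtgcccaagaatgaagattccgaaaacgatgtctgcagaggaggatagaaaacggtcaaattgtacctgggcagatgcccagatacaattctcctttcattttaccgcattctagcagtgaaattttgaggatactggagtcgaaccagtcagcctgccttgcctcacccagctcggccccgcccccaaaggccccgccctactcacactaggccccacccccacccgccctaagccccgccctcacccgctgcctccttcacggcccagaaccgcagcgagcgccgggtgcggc
The Itgam promoter held 3 matches, the nearest upstream one 15 to 10 bases before the start. Slc11a1, Laptm5 and Trem2 held 1 each, those of Laptm5 and Trem2 at 38 to 33 and 40 to 35 bases before the start, and Gas6 held 0. Lyz2, the other called gene with a promoter, also held 0.

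Among the 10 pan-leukocyte genes, 1 rose, 2 fell and 7 did not pass the test. These genes cover the surface and the signalling and actin machinery that blood cells share. Of all genes, 0.434% rose and 1.07% fell, and these shares apply to each role group below. Ptprc, the phosphatase CD45 carried by all leukocytes, was at 9.41, 9.66 and 9.43 log2 with Shh and 9.62, 9.80 and 9.57 with Ihh, against 9.82, 9.88 and 9.49 with Vehicle, so the groups overlapped. It differed by -0.15 (95% interval -0.37 to 0.07, adjusted p = 0.577). The tetraspanin Cd53, the adhesion ligand Cd48 and the guanine exchange factor Dock2 differed by -0.11, -0.04 and -0.06. The actin bundler Lcp1, the adaptor Lcp2 and the actin-binding Coro1a differed by -0.25, -0.24 and -0.23 (adjusted p = 0.167, 0.11 and 0.277). The median of the group was -0.19 log2 and 9 of 10 differences were below 0, as were 8998 of 18193 over all genes.

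Of the 6 Fc receptor and adaptor genes, Trem2 rose, 0 fell and 5 did not pass. Fcer1g, the gamma chain through which activating Fc receptors signal, was at 10.66, 10.55 and 10.67 log2 with Shh and 10.49, 10.65 and 10.51 with Ihh, against 10.90, 10.97 and 10.77 with Vehicle. All treated arrays were lower, and at -0.29 ± 0.06 (SE) it just missed the threshold (adjusted p = 0.0529). Tyrobp (DAP12), the adaptor through which Trem2 signals, lay the other way. Its values were 11.77, 11.75 and 11.76 with Shh and 11.65, 11.70 and 11.66 with Ihh, against 11.56, 11.60 and 11.64 with Vehicle, a difference of 0.11 (adjusted p = 0.278). The largest difference of the group was that of Fcgr1, at -0.74 (adjusted p = 0.128), described below with the Vehicle arrays. Its other probe set differed by -0.61 (adjusted p = 0.137 with every probe set in the fit). The inhibitory receptor Fcgr2b differed by -0.38 (adjusted p = 0.398) and the low-affinity receptor Fcgr3 by 0.16 (adjusted p = 0.36). The probe sets of Trem2 and Fcgr2b belong to a class that can match several transcripts. The median of the group was -0.09 log2.

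Of the 14 macrophage genes, 0 rose, 4 fell and 10 did not pass, with 7 differences above 0 and 7 below. Mpeg1, a pore-forming protein of macrophages, was at 11.56, 11.68 and 11.62 log2 with Shh and 11.65, 11.59 and 11.51 with Ihh, against 11.55, 11.57 and 11.33 with Vehicle, a difference of 0.12 (95% interval -0.03 to 0.27). The 4-span membrane protein genes Ms4a6d, Ms4a6c and Ms4a7 differed by -0.37, -0.24 and 0.16 (adjusted p = 0.0602, 0.498 and 0.482). The actin-binding Aif1 (IBA1) differed by -0.16, the adhesion receptor Cd84 by 0.17 and the lipid carrier Apoe by 0.34 (adjusted p = 0.465, 0.527 and 0.148). Ly86, a partner of a Toll-like receptor relative, differed by 0.59 ± 0.15 (SE, adjusted p = 0.101). The lectin Cd33 and the receptor Gpr34 lay below the array medians on every array and differed by 0.31 and 0.47 (adjusted p = 0.207 and 0.39). The median of the group was -0.02 log2, with a spread from -1.04 to 0.59.

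The 3 lineage transcription factors did not pass the test. At an unadjusted p under 0.05 there were 0 higher and 2 lower, where 5.25% of all genes were higher and 8.41% lower. Spi1 was at 7.83, 7.59 and 7.69 log2 with Shh and 7.67, 7.72 and 7.75 with Ihh, against 7.86, 8.16 and 7.90 with Vehicle. Treated arrays were all lower, by -0.26 ± 0.08 (SE, adjusted p = 0.146). Among the alternative settings Spi1 passed as lower only with array weights, which also called more of all genes. Maf, a factor of resident macrophages that other cells also use, was at 10.00, 10.24 and 10.27 with Shh and 10.29, 10.29 and 10.35 with Ihh, against 10.71, 10.63 and 10.33 with Vehicle. Ihh 3 lay above Vehicle 3, and the difference was -0.32 ± 0.09 (SE, adjusted p = 0.137). Maf passed as lower with array weights and without Vehicle 3. Of the 5 other probe sets of Maf, 4 differed by -0.50 to -0.09 and 1 by 0.04. Irf8, which directs monocyte and macrophage fate, was at 8.89, 8.84 and 8.86 with Shh and 9.01, 9.08 and 8.84 with Ihh, against 8.93, 8.89 and 8.66 with Vehicle, a difference of 0.09 (adjusted p = 0.652).

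Among the 9 resident macrophage genes, Gas6 rose, 0 fell and 8 did not pass. Apart from Gas6 the differences ran from -0.21 to 0.19 log2, and the median of the group was 0.01. Pf4, a chemokine stored by platelets and also made by resident macrophages, was at 12.50, 12.29 and 12.32 with Shh and 12.18, 12.17 and 12.22 with Ihh, against 12.48, 12.51 and 12.48 with Vehicle. Shh 1 lay within the Vehicle range, and the difference was -0.21 (adjusted p = 0.102). The folate receptor Folr2 differed by -0.16 (adjusted p = 0.289). Siglec1, a sialic acid-binding receptor, lay between 6.00 and 6.23 log2 on the treated arrays and between 6.06 and 6.18 on the Vehicle arrays. The difference was 0.01 (95% interval -0.11 to 0.12), though its other probe sets, at means of 4.12 and 4.67, differed by -0.21 and -0.09. Siglec1 was thus close to the array medians of 5.87 to 5.92, where values are compressed. Lyve1, a hyaluronan receptor of resident macrophages and of lymphatic vessels, differed by -0.09 (adjusted p = 0.908). The complement receptor Vsig4 and the reductase Cbr2 lay below the array medians on every array and differed by 0.19 and 0.01.

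Most genes on the list of inflammatory macrophage genes fell. Of 29 measured genes for cytokines, chemokines, activation receptors, enzymes and other induced proteins, 0 rose and 21 fell. Of all genes, 1.07% fell. The median of the 29 was -1.18 log2. In this bulk culture of mesenchyme the cells that carried these transcripts were not identified. The part of cells other than macrophages was not tested. Of the identity genes 9 of 42 were called, with a median of -0.10. Per array, the mean of the inflammatory list around its Vehicle mean was -1.0, -1.13 and -1.38 with Shh and -1.44, -1.50 and -1.40 with Ihh, and -0.08 to 0.09 with Vehicle. The mean of the 42 identity genes was -0.10, -0.12 and -0.08 with Shh and -0.11, -0.03 and -0.11 with Ihh, against 0.02, 0.09 and -0.11 with Vehicle. Treated and Vehicle arrays were far apart in the inflammatory list. In the identity genes Vehicle 1 and 2 lay above every treated array and Vehicle 3 among them. The members' median was -0.15 against Vehicle 1 and 2 and -0.01 against Vehicle 3, and that of the inflammatory list -1.10 and -1.39. The difference between the lists was not tested, and members of both were chosen with these results known. The largest inflammatory differences, -3.64 for the formyl peptide receptor Fpr2 and -3.20 for the scavenger receptor Marco, lay beyond that of any identity gene, the largest of which was -1.04.

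**Figure D3:**
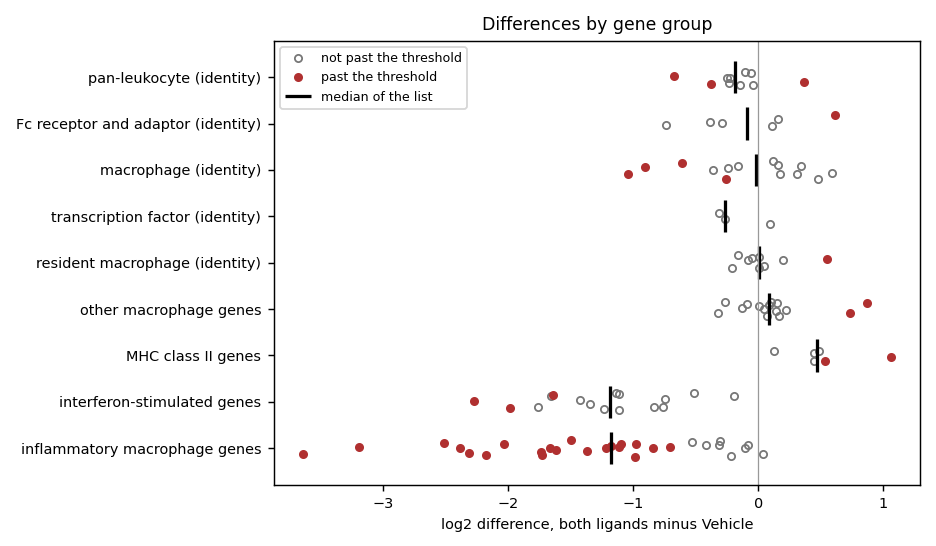
Log2 difference of both ligands minus Vehicle for each gene (points, filled where past the adjusted p of 0.05), by gene group, with the median of each group as a black bar. The identity groups centre between -0.26 and 0.01 and the inflammatory macrophage genes at -1.18.

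Of 15 other macrophage genes on a companion list, chosen with earlier results of these data known, 2 rose and 0 fell. Over all genes 0.434% rose and 1.07% fell. The median of the 15 was 0.09 log2, with 11 differences above 0 and 4 below. The growth factor receptor Csf1r, on which macrophage survival depends, differed by 0.00 log2 (95% interval -0.20 to 0.20). Timd4, a phosphatidylserine receptor of long-lived resident macrophages, was at 7.68, 8.10 and 8.06 with Shh and 7.82, 7.90 and 7.96 with Ihh, against 7.23, 7.33 and 6.99 with Vehicle. The groups did not overlap and it rose by 0.73 ± 0.10 log2 (SE, adjusted p = 0.00754). The chemokine receptor Cx3cr1 was the other gene that rose, by 0.87 (adjusted p = 0.0384). That call was lost on leaving out any 1 of 6 of the arrays, with adjusted p of up to 0.167. The receptors Csf2ra and Msr1 lay the other way, by -0.32 (adjusted p = 0.0628) and -0.27 (adjusted p = 0.189). Every treated array of Csf2ra was below every Vehicle array, while the groups overlapped in Msr1. Of 6 MHC class II genes H2-Aa and H2-Eb1 rose and 0 fell, with a median of 0.47. That median was 0.34 against Vehicle 1 and 2 and 0.73 against Vehicle 3. Vehicle 3 was the lowest Vehicle array in 5 of the 6, as it was in 32.5% of all genes. The probe set of H2-Aa is of the class that can match several transcripts. The call of H2-Eb1 ended without any single array, at adjusted p of up to 0.161.

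The Vehicle arrays were not alike in part of the list. In 25 of the 42 members (59.5%) Vehicle 3 was the lowest Vehicle array, as it was in 32.5% of all genes. Fcgr1, the high-affinity receptor for antibody, showed this most. It was at 8.76, 8.80 and 9.09 log2 with Shh and 9.24, 9.59 and 9.10 with Ihh, against 10.06, 10.24 and 9.20 with Vehicle. Vehicle 3 lay 0.95 below the mean of the other Vehicle arrays and within the treated range. The difference was -0.74 ± 0.21 (SE, adjusted p = 0.128) with all arrays and -1.05 (adjusted p = 0.00321) without Vehicle 3. Among members that were lower with the ligands, Cd52, Fcgr2b, Ms4a6c, Lyve1, Itgam, Ptprc, Aif1 and Maf had Vehicle 3 below the others by 0.61, 0.60, 0.55, 0.55, 0.40, 0.36, 0.36 and 0.34. Among members that were higher, Vehicle 3 lay below the others by 0.60 in Ly86, 0.40 in Apoe and 0.36 in Gpr34. Ly86 differed by 0.39 against Vehicle 1 and 2 and by 0.99 against Vehicle 3, and Apoe by 0.21 and 0.60. In Slc11a1, Itgb2 and Trem2 it lay 0.16, 0.05 and 0.35 above them.

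The 16 interferon-stimulated genes were also low on Vehicle 3. With both ligands Ifit1, Usp18 and Rsad2 fell and 0 rose, where 1.07% of all genes fell. The median of the 16 was -1.19 log2, which was -1.65 against Vehicle 1 and 2 and -0.37 against Vehicle 3. The calls of Ifit1 and Usp18 held only without Vehicle 3, that of Rsad2 ended without any of 5 single arrays, and all 3 ended with a trended and robust prior. Their mean around the Vehicle mean was -1.48, -1.30 and -1.12 with Shh and -1.13, -0.83 and -1.55 with Ihh, against 0.43, 0.44 and -0.88 with Vehicle. Vehicle 3 was the lowest Vehicle array in 16 of 16 of them. Its epithelial markers were also the lowest of the Vehicle arrays, at -1.16. The part of either in the identity genes was not tested. Without Vehicle 3, 12 members passed the threshold for both ligands, where 2.29% of all genes passed it, and 6 of these were among the 9 called on all arrays. The added members were Cd33, Fcer1g, Fcgr1, Lcp2, Maf and Ms4a6d, and those lost were Itgb2, Laptm5 and Lyz2. Without it 12 members were called for Shh and 9 for Ihh (3.71% and 1.26% of all genes), against 6 each on all arrays. Adgre1 and Itgam were lower than Vehicle 3 alone by 0.83 and 0.64 log2 and lower than the other Vehicle arrays by 1.15 and 1.04.

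**Figure D4:**
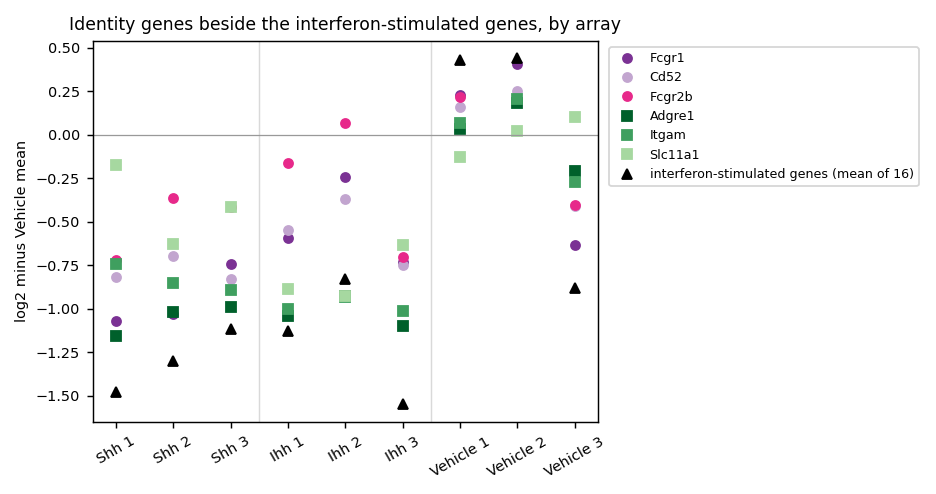
Log2 expression on each array minus the Vehicle mean for 6 identity genes (circles and squares) and for the mean of the 16 interferon-stimulated genes (triangles), in the order Shh, Ihh and Vehicle. On Vehicle 3 the interferon-stimulated genes, Fcgr1, Fcgr2b and Cd52 lie among the treated arrays, while Adgre1, Itgam and Slc11a1 stay above their own values on every treated array.

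For Shh against Vehicle, 3 members rose (Trem2, Gas6, Laptm5) and 3 fell (Adgre1, Itgam, Cd52), where 1.73% of all genes were called, 0.489% rising and 1.24% falling. For Ihh against Vehicle, Gas6 rose and 5 members fell (Adgre1, Itgam, Slc11a1, Itgb2, Lyz2), where 0.649% of all genes were called, 0.192% rising and 0.456% falling. Same-numbered Ihh and Vehicle pools deviated together, though a pairing by number was not established. A fit of these arrays with the number as a block, added after the data were seen, called 11 members (1.54% of all genes). It kept the 6 and added Apoe, Gpr34, Ly86 and Trem2, which were higher, and Cd52, which was lower. These comparisons share the Vehicle arrays. The ligands were therefore set against each other directly. For Shh against Ihh, limma called 0 of the 42 members, where 0.011% of all genes were called. Taken unadjusted, p was under 0.05 for 5 members higher with Shh and 3 lower, where 7.17% of all genes were higher and 5.97% lower, 13.1% in all. The smallest adjusted p of a member was 0.285.

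The members with an unadjusted p under 0.05 between the ligands are given with their intervals. Slc11a1, Itgb2 and Lyz2 were higher with Shh than with Ihh by 0.41 (95% interval 0.14 to 0.68), 0.33 (0.15 to 0.51) and 0.24 (0.11 to 0.38) log2. Cd53 and Pf4 were higher with Shh by 0.21 (0.05 to 0.38) and 0.18 (0.04 to 0.32). Gpr34, Ly86 and Folr2 were lower with Shh, at -0.89 (-1.47 to -0.31), -0.41 (-0.81 to -0.02) and -0.19 (-0.36 to -0.03). None of these 8 passed the adjusted threshold. For Adgre1 the interval was -0.25 to 0.19 and for Itgam -0.08 to 0.39, so a difference between the ligands within those bounds could not be told from 0 with 3 arrays each.

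**Figure D5:**
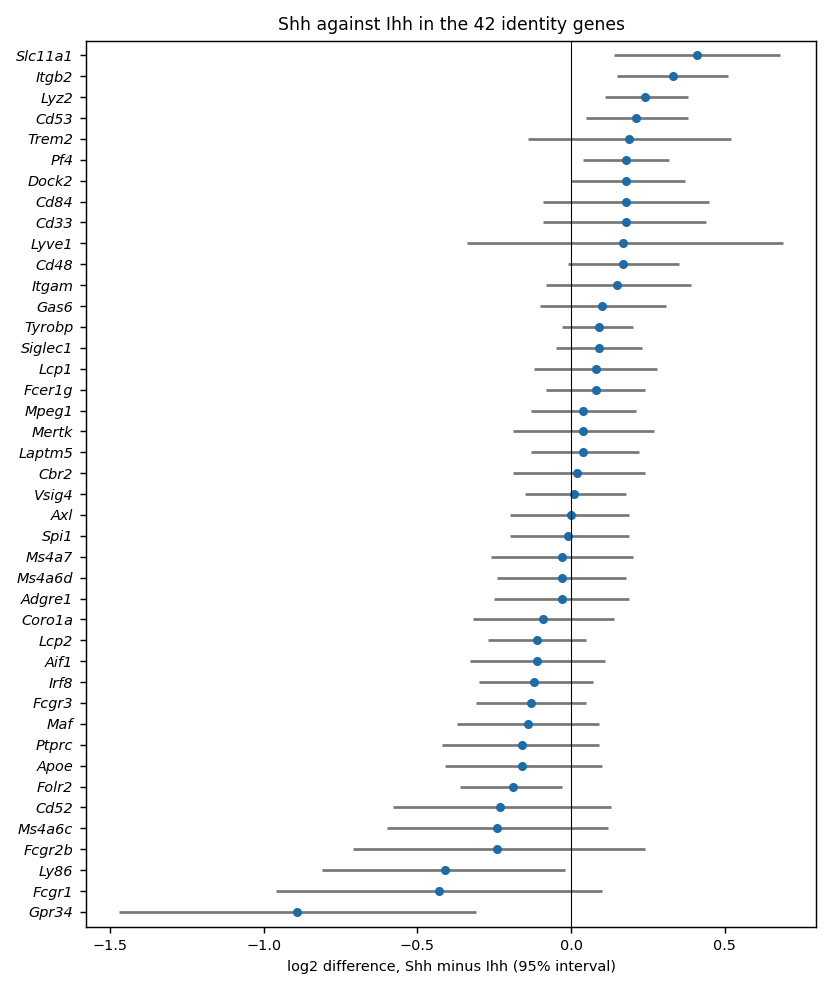
Log2 difference of Shh minus Ihh for each of the 42 identity genes (points) with its 95% interval (lines). Intervals of 8 genes exclude 0, and Slc11a1 and Gpr34 mark the ends of the range at 0.41 and -0.89.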

How the data were processed

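The deposited table holds log2 values per probe set, made by the authors with RMA, and GCOS is also named, both per the submitters' processing notes and without versions. RMA subtracts background and quantile-normalizes the arrays, which compresses low values. Of 45101 probe sets, 34945 had a single symbol, 932 several and 9160 none, and 64 were controls. Where several single-symbol probe sets measured a gene, the brightest on average stood for it, which left 18193 genes. Names were set against RefSeq for GRCm38.p6, where the gene IDs of 34741 probe sets were found and 0 symbols changed. Promoters come from the same source. The GAGGAA search was added after that for GAGGAAGT was seen. All 9 arrays entered one linear model in limma 3.58.1 (R 4.3.3), with 4 contrasts: Shh against Ihh, and Shh, Ihh or both ligands against Vehicle. The eBayes p-values were adjusted over the 18193 genes (Benjamini-Hochberg), with calls at 0.05. The fit was tested on simulated data. Intervals are 95% from the same fit, and no p was computed for the list.

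The members and lists were chosen with earlier results of these data known. The rule for named genes was every member past the threshold, the 3 members of each role with the smallest p, Ptch1, Csf1r and up to 4 genes of each companion list. Other members named were described after their values were seen. Alternatives were a replicate block, other normalizations, filters and probe set rules, other priors, array weights, only the arrays compared, and leaving out each array. Same-numbered Ihh and Vehicle pools had deviations correlated at 0.226 to 0.543 (3 pairs), though the labels give random pooling, so a blocked fit of these arrays alone was added after the data were seen.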

Additional observations from a re-analysis of the deposited data

How the results depend on the processing

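Of 608 values of named genes recomputed under the alternatives for both ligands against Vehicle, 7 changed direction, 99 lost the call and 27 gained it, and most losses came from leaving out an array (20 of 302 under the other settings). The 7 were all of Csf1r, not called and at 0.00 log2, which was -0.10 with the mean of probe sets, -0.035 with array weights and -0.091 to 0.054 with an array left out. The number of called members that rose with both ligands (3) was 1 without less specific probe sets, 5 with array weights and 0 to 3 with an array left out, and the number that fell (6) was 16 with array weights and 2 to 9 with an array left out. For Shh, the 3 that rose were 1 without less specific probe sets, 1 when each probe set was tested alone and 0 to 3 with an array left out, and the 3 that fell were 11 with array weights and 2 to 9 with an array left out. For Ihh, the 1 that rose was 0 with the mean of probe sets, 0 when each probe set was tested alone, 5 with array weights and 0 to 1 with an array left out, and the 5 that fell were 10 with array weights and 2 to 9 with an array left out; the block on Ihh and Vehicle arrays alone gave 5 and 6. Shh against Ihh gave 0 members in every setting. Over all genes, array weights gave 343 rising and 783 falling for both ligands (79 and 195 without weights), and leaving out an array gave down to 27 rising and 72 to 349 falling. For Shh all-gene counts of 89 rising and 225 falling became 300 and 717 with array weights, 55 rising with only the arrays compared and 407 falling with the replicate block, and 18 to 146 rising and 62 to 529 falling with an array left out. For Ihh 35 rising and 83 falling became 148 and 350 with array weights, 20 rising with only the arrays compared, 78 and 202 with the block on Ihh and Vehicle arrays alone, and 10 to 31 rising and 43 to 198 falling with an array left out. The cause was not tested. With the replicate number as a block, 7 of the 9 members stayed called for both ligands (Itgb2 and Laptm5 did not). Deviations of same-numbered arrays correlated at -0.297 to -0.0824 for Shh and Ihh and at -0.158 to 0.141 for Shh and Vehicle. For Ihh and Vehicle they correlated at 0.226 to 0.543. Differently numbered arrays reached 0.288 (Shh 1 and Ihh 3), 0.225 (Shh 1 and Vehicle 3) and 0.218 (Ihh 2 and Vehicle 1). The closest array of another group had the same number in 8 of 18 cases. A pairing by number was thus not established, and the block on Ihh and Vehicle arrays is an alternative only. The 3 arrays per group limit the precision, and 4 members lay below the array medians throughout.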

Other observations

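Gpr34, a lysophospholipid receptor of macrophages and microglia, was at 3.62, 4.39 and 4.03 log2 with Shh, 4.87, 5.46 and 4.39 with Ihh, and 4.12, 4.09 and 3.74 with Vehicle. The Shh arrays overlapped the Vehicle range, and the Ihh arrays lay above it with Ihh 3 level with Shh 2. Ly86 was at 9.04, 9.30 and 9.35 with Shh, 9.63, 9.88 and 9.42 with Ihh, and 8.94, 9.15 and 8.45 with Vehicle, with the Ihh arrays above both other groups. Neither gene passed the threshold for both ligands (adjusted p = 0.39 and 0.101) or between the ligands (adjusted p = 0.299 and 0.371). For Ihh against Vehicle without a block, adjusted p was 0.23 for Gpr34 and 0.102 for Ly86. Both passed with the replicate block on those arrays alone, a fit added after the data were seen. Gpr34 lay below the array medians on every array. Of the 34 further probe sets of members, 24 had a difference of the same sign as the one used, 10 of the opposite sign, and 0 passed the threshold when tested singly.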
